A study of Mus musculus with 8 samples.

Results

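The neural crest and pharyngeal arch factors Sox10, Foxd3, Tfap2a, Tfap2b, Dlx1, Dlx2, Dlx5, Pax3, Prrx1 and Prrx2 were examined, chosen by gene symbol, and all 10 were among the 20701 symbols of the count table. Polyadenylated RNA was sequenced from the outflow tract and right ventricle (OFT/RV) dissected from single mouse embryos at stage E10.5, with 4 wild type control embryos (CTRL) and 4 embryos hypomorphic for Isl1 (Isl1_hypo), all labelled as strain C57BL/6. The hypomorphs carried the f;neo allele of Isl1, which lowers its expression, on both chromosomes, and Isl1 encodes a LIM-homeodomain factor of the second heart field, the progenitor population that builds the outflow tract and right ventricle. The comparison asks how these factors differ in OFT/RV when Isl1 is reduced. Each library held 18422245 to 46678973 counts over the symbols. Isl1 stood at 29.6 to 61.5 CPM (counts scaled to the library total) in CTRL and at 6.86 to 12.7 CPM in Isl1_hypo, a log2 fold change of −2.29 (SE 0.256, edgeR adjusted p 0.0077).

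Neural crest cells leave the dorsal neural tube, and one stream of them, the cardiac crest, passes through the caudal pharyngeal arches into the outflow tract, where it takes part in dividing the aorta from the pulmonary artery. Pax3, the AP-2 factors Tfap2a and Tfap2b, Foxd3 and Sox10 act while crest is specified and as it migrates, whereas the Dlx homeobox genes pattern the mesenchyme of the arches. Prrx1 and Prrx2 are homeobox genes of the mesenchyme in arches, limbs and heart.

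In CTRL the 10 factors ranged from abundant mesenchymal genes to genes at the limit of detection. Per kilobase of transcript, Prrx2 was highest at 15.7 ± 3.28 CPM (SD, n = 4 here and below), followed by Prrx1 at 4.42 ± 1.20 and Dlx2 at 2.88 ± 0.364. Dlx5 (0.933), Dlx1 (0.344), Tfap2a (0.137) and Sox10 (0.0877) came next, and Tfap2b (0.0110), Pax3 (0.00476) and Foxd3 (0) closed the order, all in CPM per kilobase. The libraries' ranges overlapped between Tfap2a and Sox10, between Tfap2b and Pax3, and between Pax3 and Foxd3, so these neighbors were not separated, and the other neighbors did not overlap. In Isl1_hypo the order began in the same way, with Prrx2 at 12.2, Prrx1 at 3.59 and Dlx2 at 1.13 CPM per kilobase, but Dlx1 stood ninth at 0.0227. The ranges of Dlx2 and Dlx5 (0.650) overlapped in these embryos, as did those of each pair of neighbors from Tfap2a (0.103) through Tfap2b (0.0659), Sox10 (0.0563), Pax3 (0.0233) and Dlx1 to Foxd3 (0.00395).

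**Figure D1:**
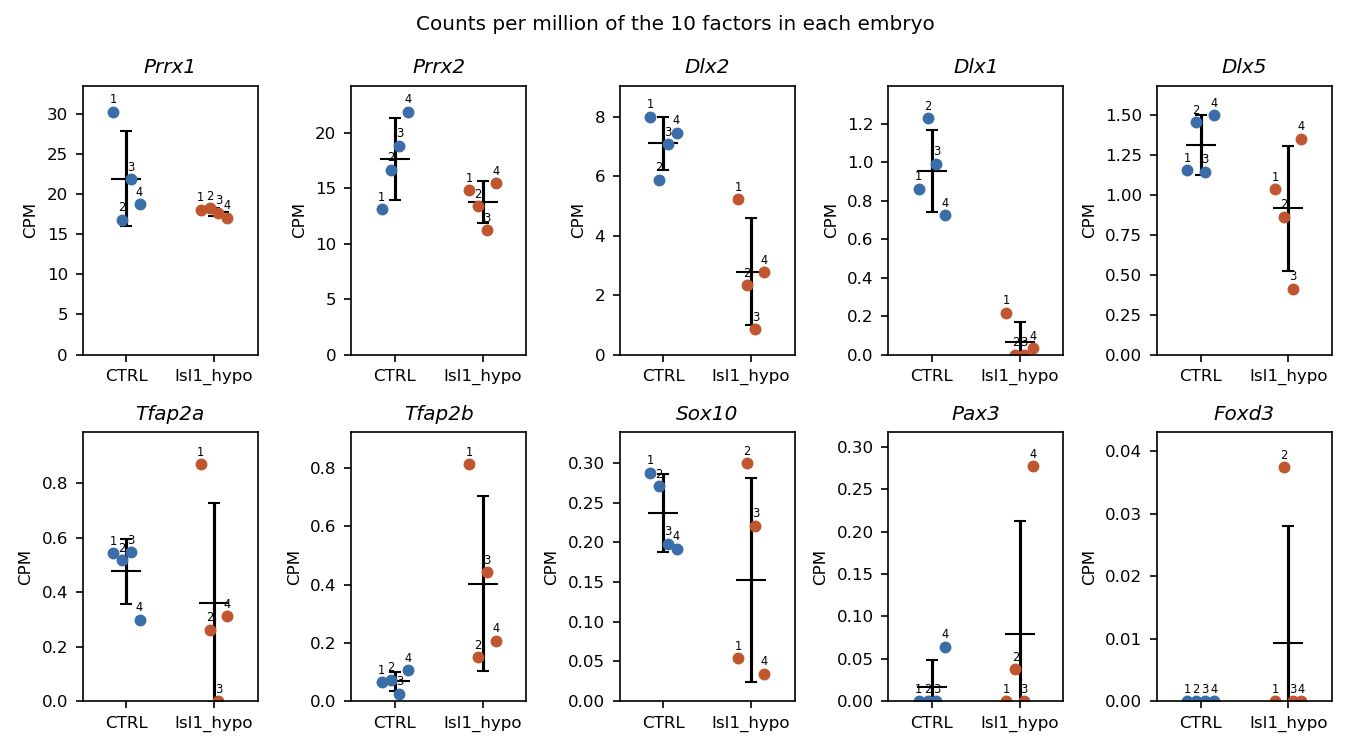
Each panel plots 1 factor, with CPM on a linear axis from 0 that differs between panels, the 4 CTRL and 4 Isl1_hypo embryos as numbered points, and the mean with its SD as black bars, cut off at 0. Dlx1 and Dlx2 are lower in every Isl1_hypo embryo than in every CTRL embryo, Tfap2b is higher in every one, and the other 7 factors overlap.

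Of the 10 factors, 6 passed the filter on low counts, which asked for at least 0.318 CPM, equal to 10 counts at the median depth, in 4 libraries. Dlx2, Dlx5, Prrx1 and Prrx2 reached that level in all libraries, Tfap2a in 3 CTRL libraries and 1 Isl1_hypo library, and Dlx1 in the 4 CTRL libraries alone. Dlx1 could thus enter the test only by being high in CTRL, so the counts over the tested factors are descriptions. None of the 6 passed an adjusted p of 0.05 with edgeR or with limma-voom using sample quality weights. With edgeR, 2 had an unadjusted p under 0.05, and DESeq2 called 1, Dlx1. Over all 13769 genes tested, edgeR called 0.269% (0.123% lower and 0.145% higher in Isl1_hypo). At an unadjusted p under 0.05 the 2 factors, Dlx1 and Dlx2, were both lower, against 6.17% of all genes lower, 5.69% higher and 11.9% in either direction. The same 2 had CPM values below those of every CTRL library, against 4.44% of all genes, and none of the 6 lay above every CTRL library, against 4.06%. All 6 fitted log2 fold changes were under 0, as were 49.1% of all genes, and their median was −0.49 against 0.0057 over all genes tested. These values depend on the filter, which removed Tfap2b, a factor that lay above every CTRL library. In a fit without the filter Tfap2b was at 2.49, and Pax3 and Foxd3, near or at 0 counts, were also above 0. The median over all 10 factors was −0.40 in that fit.

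**Figure D2:**
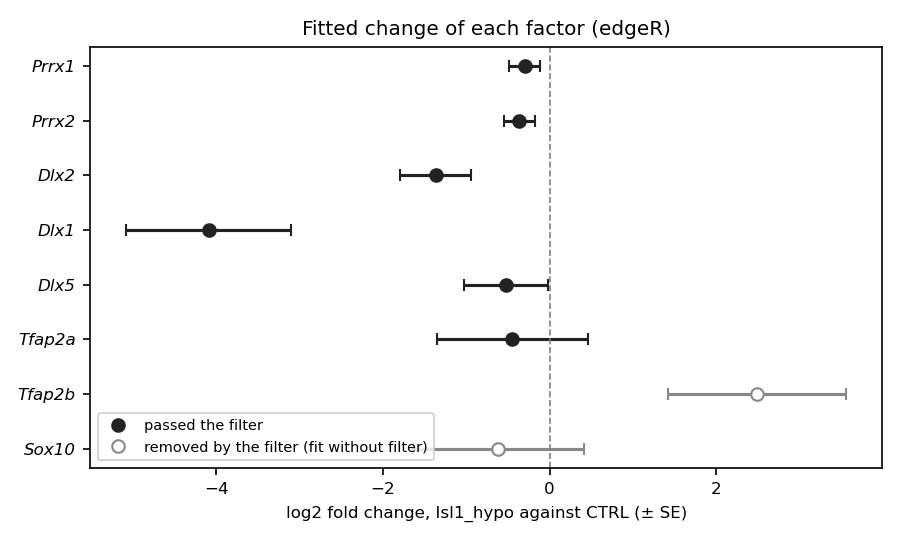
The fitted log2 fold change of Isl1_hypo against CTRL is plotted on the x axis with its SE for 8 factors, filled for those that passed the filter and open for Tfap2b and Sox10, which were fitted without a filter. Dlx1 at −4.09 and Dlx2 at −1.37 lie farthest below 0 and Tfap2b at 2.49 lies above it, while Pax3 and Foxd3 are left out because they were near or at 0 counts.

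Dlx1 showed the widest difference among the arch homeobox genes. Dlx1 and Dlx2 are neighboring paralogs transcribed toward each other on chromosome 2, at chr2:71366170-71372038 (plus strand) and chr2:71381466-71384811 (minus strand) in mm9, and both are expressed in arch mesenchyme and in forebrain. Dlx1 received 27, 50, 40 and 34 counts in CTRL 1 to 4 and 4, 0, 0 and 1 in Isl1_hypo 1 to 4, or 0.953 ± 0.214 against 0.0630 ± 0.104 CPM. The groups did not overlap, the highest Isl1_hypo library held 0.217 CPM and the lowest CTRL library 0.727 CPM, and 3 of the 4 hypomorphs were under the floor of 3 counts, which corresponded to 0.0948 to 0.112 CPM at the depths of these 3. The fitted log2 fold change was −4.09 (SE 0.987, unadjusted p 0.0015, edgeR adjusted p 0.146). Summed over the group, the 5 counts of Isl1_hypo against 151 of CTRL gave a ratio of 0.0498 relative to the TMM-scaled library totals (exact 95% interval 0.0159 to 0.119, covering counting error only). Isl1_hypo 1 held 4 of these 5 counts, and without it the fitted log2 fold change was −5.99 (edgeR adjusted p 0.0623). DESeq2 put the adjusted p of Dlx1 at 0.0102, past the threshold, and limma-voom with sample quality weights at 0.0537. Dlx1 passed the filter only through CTRL, so the p-values from fits with the filter are descriptions. Without the filter edgeR gave −4.04 (unadjusted p 0.0031, edgeR adjusted p 0.201). In bulk tissue, fewer cells expressing a gene and less RNA per cell cannot be told apart.

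Dlx2, the more abundant of the pair, was at 8.0, 5.88, 7.08 and 7.46 CPM in CTRL 1 to 4 and at 5.21, 2.32, 0.853 and 2.77 CPM in Isl1_hypo 1 to 4. Every hypomorph was thus below every control, although Isl1_hypo 1 came close to CTRL 2 and Isl1_hypo 3 was far below the rest. The mean was 39.3% of that of CTRL (7.10 ± 0.899 against 2.79 ± 1.81 CPM), and the fitted log2 fold change was −1.37 (SE 0.426, unadjusted p 0.0081, edgeR adjusted p 0.256). In a fit without Isl1_hypo 1 and 3, added after the data were seen, the log2 fold change was −1.48 for Dlx2 (edgeR adjusted p 0.0866) and −5.49 for Dlx1 (edgeR adjusted p 0.132). The summed counts, 265 against 1123, gave a ratio of 0.355 (exact 95% interval 0.309 to 0.406, counting error only).

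Within the pair, Dlx1 made up 9.75%, 17.3%, 12.3% and 8.88% of the Dlx1 and Dlx2 counts in CTRL 1 to 4. In Isl1_hypo 1 to 4 its share was 4.0%, 0%, 0% and 1.23%, of 100, 62, 27 and 81 counts. The shares did not overlap between the groups, and with all libraries of a group summed they were 11.9% in CTRL (95% Wilson interval 10.2% to 13.7%) and 1.85% in Isl1_hypo (0.794% to 4.26%). Single hypomorphs were less precise, since 0 of 27 counts in Isl1_hypo 3 has a Wilson interval that reaches 12.5%, and the difference in share was not tested because 3 libraries held fewer than 3 counts of Dlx1.

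**Figure D3:**
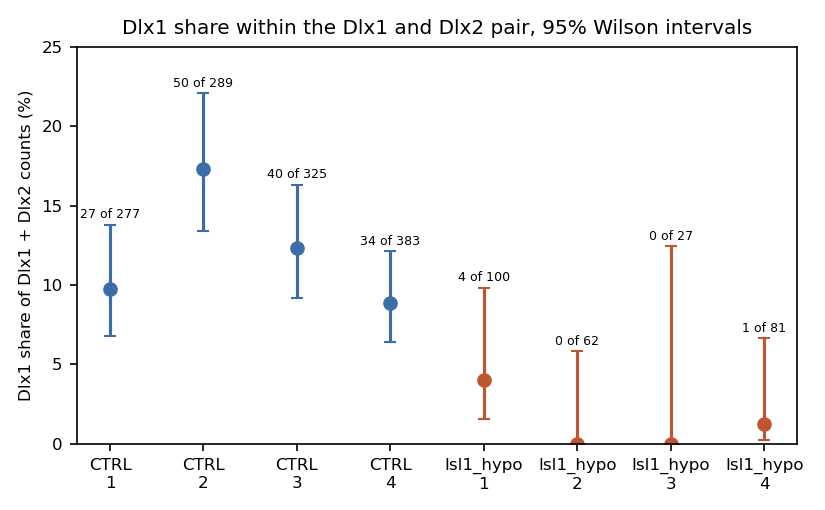
The y axis gives the share of Dlx1 in the summed counts of Dlx1 and Dlx2 in percent for each of the 8 embryos on the x axis, with 95% Wilson intervals for counting error and the counts written above. The 4 CTRL shares lie between 8.88% and 17.3% and the 4 Isl1_hypo shares between 0% and 4.0%, with wide intervals in the hypomorphs.

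The genes around the pair did not show a shared decrease. Within 500000 bases of Dlx1 and Dlx2, a window chosen after the values were seen, 10 other genes were tested, and their log2 fold changes ran from −0.59 (Rapgef4) to 0.82 (Cybrd1). None passed the adjusted threshold in edgeR and 1 had an unadjusted p under 0.05, the integrin gene Itga6 at −0.33 (edgeR adjusted p 0.375). Over all genes tested, 11.9% had such a p in either direction and 6.17% were lower. Metap1d, the closest neighbor upstream of Dlx1, was at 0.15 (edgeR adjusted p 0.812). Strand was ignored in the counting, and the antisense gene Dlx1as overlapped 335 of the 5396 annotated exon bases of Dlx1 (6.21%), so reads of the antisense RNA there cannot be told apart from those of Dlx1.

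The promoters of Dlx1 and Dlx2 are shown because these factors had the lowest unadjusted p-values, and that of Tfap2b because it was the factor whose libraries were all higher in Isl1_hypo. Each covers 250 bases before to 50 bases after a transcription start in RefSeq (build GRCm38.p6), 5′ to 3′ on the strand of the gene. Promoters were found for 7 of the 10 factors, and Sox10, Dlx5 and Pax3 were not matched. The capitals mark TAAT on either strand (TAAT or ATTA, with overlapping matches joined), the core of the sites that many homeodomain proteins bind.
Dlx1, chr2:71529195-71529494, plus strand: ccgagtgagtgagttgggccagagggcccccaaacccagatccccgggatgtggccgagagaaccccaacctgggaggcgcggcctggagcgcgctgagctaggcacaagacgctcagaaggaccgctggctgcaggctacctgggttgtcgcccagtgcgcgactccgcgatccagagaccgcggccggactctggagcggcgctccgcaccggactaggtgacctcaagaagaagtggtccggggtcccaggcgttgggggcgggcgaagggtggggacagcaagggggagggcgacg
Dlx2, chr2:71546705-71547004, minus strand: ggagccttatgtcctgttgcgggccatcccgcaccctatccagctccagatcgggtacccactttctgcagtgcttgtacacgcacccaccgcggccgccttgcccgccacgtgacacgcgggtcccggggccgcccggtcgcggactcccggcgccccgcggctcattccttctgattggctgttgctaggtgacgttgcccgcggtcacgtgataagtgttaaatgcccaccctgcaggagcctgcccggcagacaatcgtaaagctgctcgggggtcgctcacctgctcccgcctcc
Tfap2b, chr1:19211804-19212103, plus strand: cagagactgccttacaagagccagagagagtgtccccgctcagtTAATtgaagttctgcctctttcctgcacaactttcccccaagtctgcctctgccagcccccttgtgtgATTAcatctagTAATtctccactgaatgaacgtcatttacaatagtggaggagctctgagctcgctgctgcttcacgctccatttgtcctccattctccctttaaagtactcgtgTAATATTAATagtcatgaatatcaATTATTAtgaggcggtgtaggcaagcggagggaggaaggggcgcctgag
These letters occurred 0 times in the windows of Dlx1 and Dlx2 and 8 times in that of Tfap2b. Prrx2 also had 0, Foxd3 had 1, Prrx1 had 4, and the 2 starts of Tfap2a had 3 and 5, while 58.0% of all 32851 RefSeq promoters of this length held at least 1. The windows of Dlx1 and Dlx2 were rich in G and C (69.3% and 66.3%), and that of Tfap2b was at 48.3%. A match is only a stretch of letters, and no match says only that the letters are not in this window.

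Dlx5, which patterns the ventral part of the arches, lies on the minus strand of chromosome 6 (chr6:6827805-6832085, mm9). It received 36, 59, 46 and 70 counts in CTRL 1 to 4 and 19, 23, 13 and 39 in Isl1_hypo 1 to 4, or 1.31 ± 0.190 against 0.913 ± 0.391 CPM. The groups overlapped, with Isl1_hypo 4 at 1.35 CPM inside the CTRL range of 1.14 to 1.5 CPM and Isl1_hypo 3 lowest at 0.411 CPM. Its log2 fold change of −0.52 (SE 0.503, edgeR adjusted p 0.706) was close to its SE, and it ran from −0.78 without Isl1_hypo 4 to −0.28 without Isl1_hypo 3. Dlx6, its partner in a cluster, was removed by the filter, with 4, 2, 2 and 12 counts in CTRL and 7, 4, 0 and 1 in Isl1_hypo.

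The mesenchymal genes Prrx1 and Prrx2 overlapped between the groups. Prrx1 (chr1:165175247-165243841, minus strand, mm9) was at 30.3, 16.8, 21.9 and 18.7 CPM in CTRL 1 to 4 and at 18.1, 18.3, 17.7 and 17.1 CPM in Isl1_hypo 1 to 4. All hypomorphs lay inside the CTRL range, and CTRL 1 stood above the other 7 libraries. The log2 fold change was −0.30 (SE 0.183, edgeR adjusted p 0.538), and it ran from −0.41 without CTRL 2 (unadjusted p 0.0495 in edgeR) to −0.11 without CTRL 1. Prrx2 (chr2:30690492-30736761, plus strand, mm9) was at 13.1, 16.7, 18.8 and 21.9 CPM in CTRL and at 14.8, 13.4, 11.2 and 15.5 CPM in Isl1_hypo. Here CTRL 1 was the lowest control and 3 of the 4 hypomorphs lay above it. Its log2 fold change was −0.36 (SE 0.186, unadjusted p 0.0755, edgeR adjusted p 0.475), with a mean of 77.8% of that of CTRL, and it was −0.48 without CTRL 1 (unadjusted p 0.0197 in edgeR) and −0.24 without CTRL 4.

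The balance between these paralogs was compared within each library, where library scaling cancels. The log2 ratio of Prrx1 to Prrx2, in CPM per kilobase, was −0.94, −2.13, −1.93 and −2.37 in CTRL and −1.86, −1.69, −1.49 and −2.0 in Isl1_hypo. The CTRL values covered the whole range of the hypomorphs, and the means differed by 0.082 (exact 2-sided permutation test over 70 assignments, p 0.857, n = 4 each). This was the only one of 4 paralog pairs with at least 3 counts of both genes in every library. Prrx1 also has transcripts that end differently. The counts of its shorter RefSeq transcript, 82.6% as long as the longest and sharing most of its exons, were 51.4% to 61.2% of those of the longest in CTRL and 58.3%, 53.7%, 36.6% and 44.1% in Isl1_hypo 1 to 4. Isl1_hypo 3 and 4 were below all controls and the other two were not, which was not tested.

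The AP-2 genes were at low counts in both groups. Tfap2a (chr13:40811044-40829192, minus strand, mm9), which acts in crest and in surface ectoderm, received 17, 21, 22 and 14 counts in CTRL and 16, 7, 0 and 9 in Isl1_hypo. The hypomorphs spread from 0 CPM in Isl1_hypo 3 to 0.869 CPM in Isl1_hypo 1, above and below the CTRL range of 0.299 to 0.546 CPM. The log2 fold change was −0.45 (SE 0.906, edgeR adjusted p 0.875), and it was −1.31 without Isl1_hypo 1, −0.015 without Isl1_hypo 3 and 0.56 with the globin level as a covariate, so no direction was established. A short antisense gene, Gm16989, overlapped 3.42% of its exon bases.

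Tfap2b (chr1:19198995-19228815, plus strand, mm9), known for its part in crest-derived smooth muscle of the ductus arteriosus, received 2, 3, 1 and 5 counts in CTRL and 15, 4, 14 and 6 in Isl1_hypo. In CPM the groups did not overlap (0.0248 to 0.107 against 0.15 to 0.815), but only Isl1_hypo 1 and 3 lay above the level the filter asked for. A fit without that filter gave a log2 fold change of 2.49 (SE 1.07, unadjusted p 0.0361, edgeR adjusted p 0.416). The summed counts, 39 against 11, gave a ratio of 5.33 (exact 95% interval 2.68 to 11.5, counting error only). Tfap2a accounted for 87.1% of the summed counts of both genes in CTRL (95% Wilson interval 78.3% to 92.6%) and for 45.1% in Isl1_hypo (34.0% to 56.6%). The share ran from 73.7% to 95.7% across the CTRL libraries and was 51.6%, 63.6%, 0% and 60.0% in Isl1_hypo 1 to 4, so the groups did not overlap, and this was not tested.

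Sox10, the factor that marks migrating crest and its glial and pigment descendants (chr15:78985343-78994920, minus strand, mm9), received 9, 11, 8 and 9 counts in CTRL and 1, 8, 7 and 1 in Isl1_hypo. Isl1_hypo 2 was above and Isl1_hypo 3 among the controls, at 0.300 and 0.221 CPM against 0.192 to 0.288 CPM, while Isl1_hypo 1 and 4 held a single count each. The ratio of the sums was 0.691, with an exact 95% interval of 0.365 to 1.26 that covers counting error only and not the spread between embryos, and the fit without a filter gave −0.61 (SE 1.02, edgeR adjusted p 0.841). No difference in Sox10 was detected at these low counts.

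Foxd3 and Pax3, which act early in crest induction, were at the limit of detection. Foxd3 (chr4:99322990-99325362, plus strand, mm9) had 0 counts in 7 libraries and 1 count in Isl1_hypo 2. A count of 0 allows up to 0.0641 to 0.0960 CPM in the CTRL libraries and 0.0948 to 0.163 CPM in the Isl1_hypo libraries. Pax3 (chr1:78097842-78193709, minus strand, mm9) had 0, 0, 0 and 3 counts in CTRL and 0, 1, 0 and 8 in Isl1_hypo, so that 8 of the 9 counts of the hypomorphs came from Isl1_hypo 4. No fold change is given for these genes, since nearly all libraries were at or under the floor of 3 counts.

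Several properties of the libraries moved with these values. Isl1_hypo 3 had the lowest Dlx2, Dlx5, Tfap2a and Prrx2 values, and across 12588 genes its log2 CPM fell by 0.295 for every 10 percentage points of transcript GC content, where the other libraries ranged from −0.0375 to 0.112. The GC content was 58.3% for Dlx2, 54.7% for Dlx5, 54.6% for Dlx1, 50.7% for Tfap2a, 63.7% for Prrx2, 43.6% for Prrx1 and 46.0% for Tfap2b, against a median of 50.5% over tested genes. Sox10 was at 61.7%, but its value in Isl1_hypo 3 (0.221 CPM) lay within the CTRL range. Foxd3 and Pax3, near or at 0 counts, were at 64.2% and 48.5%. Without that library the log2 fold change was −3.63 for Dlx1 (edgeR adjusted p 0.167) and −1.06 for Dlx2 (edgeR adjusted p 0.219). Globin transcripts made up 0.212% to 1.19% of the counts in CTRL and 1.18% to 2.44% in Isl1_hypo. Of 9 globin genes tested, some of which share reads with near-identical copies, 7 were higher at an unadjusted p under 0.05 (all genes 5.69% higher). Of these genes 0 passed the adjusted threshold in edgeR (median log2 fold change 1.66), with Hbb-bs and Hbb-b1 at 1.29 and 1.28 (edgeR adjusted p 0.106 each) and Hba-a1 at 2.03 (edgeR adjusted p 0.177). With the globin level as a covariate Dlx1 was at −3.50 (unadjusted p 0.0205 in edgeR), Dlx2 at −1.15 (0.0861, no longer under 0.05), Prrx2 at −0.64 (0.0382, now under 0.05) and Prrx1 at −0.078 (0.794), with an edgeR adjusted p of 0.999 for each. Isl1 was at −2.33 in that fit and was no longer called (SE 0.365, edgeR adjusted p 0.494). Globin level and group went together, so this fit cannot tell their parts apart. Isl1_hypo 1 had the highest values of Dlx1, Dlx2, Tfap2a and Tfap2b among the hypomorphs. It also had the highest sum over the 10 genes of the epithelial list, 358 CPM against 144 to 200 CPM in the other hypomorphs and 89.9 to 144 CPM in CTRL. Most of this sum came from Krt8, Krt18 and Grhl3 in every library, so it is not a measure of epithelium alone. The Cdh1 and Cldn6 counts of Isl1_hypo 1, markers of epithelium, were 282 and 708, against at most 9 and 8 in any other library. The part of GC content, globin and epithelium in the differences of Tfap2a and Tfap2b was not tested beyond these values.

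Other genes of the same lineages were counted in lists. Among 12 further crest specifiers, 9 were tested, none passed the adjusted threshold in edgeR, and at an unadjusted p under 0.05, 5 were lower and none higher (all genes 6.17% lower and 5.69% higher), the median being −0.57 on the log2 scale. The summed level of this list overlapped between the groups, at 400 to 595 CPM in CTRL and 345 to 421 CPM in Isl1_hypo. The lowest p-values belonged to Msx2, a homeobox gene downstream of BMP signaling, at −1.44 (SE 0.351, edgeR adjusted p 0.148), to the SoxD gene Sox5 at −0.58 (edgeR adjusted p 0.201) and to Snai1, which represses epithelial adhesion genes, at −0.81 (edgeR adjusted p 0.283). Msx2 was at 43.4, 42.3, 42.5 and 37.0 CPM in CTRL and at 29.3, 15.4, 7.24 and 9.20 CPM in Isl1_hypo, again highest in Isl1_hypo 1 and lowest in Isl1_hypo 3. Several of these genes are also expressed in heart mesenchyme and cushions.

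Genes of crest glia, nerve and pigment went both ways. Of 11 genes 7 were tested, 0 passed the adjusted threshold, and 2 were lower and 2 higher at an unadjusted p under 0.05 (all genes 6.17% and 5.69%), with a median of 0.14. Their summed level overlapped too, at 200 to 255 CPM in CTRL and 205 to 280 CPM in Isl1_hypo. The neurotrophin receptor gene Ngfr was at −1.08 (edgeR adjusted p 0.224), the neuregulin receptor gene Erbb3 at −0.85 (edgeR adjusted p 0.316) and the endothelin receptor gene Ednrb at 0.37 (edgeR adjusted p 0.369).

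Of 20 arch mesenchyme genes 11 were tested, with 4 fitted log2 fold changes under 0 and 7 above. Of these, 0 passed the adjusted threshold, 2 were lower and 1 higher at an unadjusted p under 0.05 (all genes 6.17% and 5.69%), and the median was 0.045. The summed level of the list was 278 to 309.5 CPM in CTRL and 185 to 251 CPM in Isl1_hypo, without overlap, and was not tested. The sum rested mainly on 4 genes, of which Hand1 (104 against 50.5 CPM on average) and Meox1 (57.3 against 33.1 CPM) were lower, whereas Ednra (82.1 against 84.7 CPM) and Hand2 (41.2 against 41.6 CPM) were not. Meox1 was at −0.79 (edgeR adjusted p 0.230), Hand1, which is also expressed in outflow tract myocardium, at −1.04 (edgeR adjusted p 0.277) and Alx4 at 2.62 (edgeR adjusted p 0.319). Alx4 reached the level of the filter in 4 Isl1_hypo libraries and 1 CTRL library, so it entered the test only by being high in Isl1_hypo, and it rested on 6, 19, 2 and 0 counts in CTRL and 40, 17, 27 and 22 in Isl1_hypo. Lhx8 had 0 counts in all libraries.

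**Figure D4:**
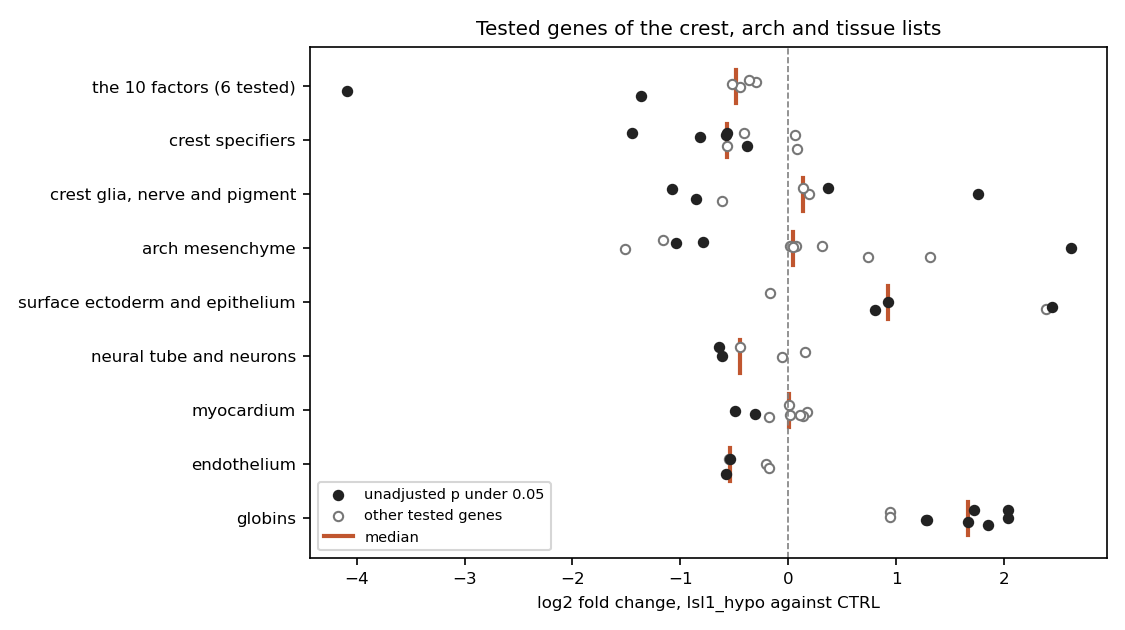
Log2 fold changes of tested genes are plotted on the x axis, with 1 row for each list on the y axis, filled where the unadjusted p was under 0.05, and an orange bar at the median of each list. The median of the 10 factors' 6 tested genes is −0.49, those of crest specifiers, endothelium and neural genes are −0.57, −0.54 and −0.45, epithelium at 0.92 and globins at 1.66 lie farthest above 0, and no gene in these rows passed the adjusted threshold.

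The lists for other tissues describe what the dissected pieces contained, and their counts at an unadjusted p under 0.05 stand beside 6.17% of all genes lower and 5.69% higher. The 8 myocardial genes summed to 39921 to 48701 CPM in CTRL and 44202 to 52116 CPM in Isl1_hypo, with a median log2 fold change of 0.0081 and 2 lower at an unadjusted p under 0.05. Those with the lowest p-values were the myosin heavy chain genes Myh7 at −0.49 and Myh6 at −0.31 and the actin gene Actc1 at 0.17 (edgeR adjusted p 0.165, 0.391 and 0.579). Endothelial genes summed to 576 to 670 against 393 to 548 CPM (5 tested, 2 lower) and neural genes to 177 to 237 against 114 to 158 CPM (5 tested, 2 lower), both without overlap. The endothelial junction genes Pecam1 and Cdh5 were at −0.58 and −0.54 and the receptor gene Tie1 at −0.55 (edgeR adjusted p 0.170, 0.241 and 0.521). Nes, which encodes an intermediate filament of neural and other progenitors, was at −0.64 without overlap (edgeR adjusted p 0.0662) and made up most of the neural sum, which without it overlapped between the groups (55.8 to 81.1 against 34.6 to 57.2 CPM). Stmn2 was at −0.61 and Tubb3 at −0.45 (edgeR adjusted p 0.328 and 0.429). Of 5 tested epithelial genes 3 were higher at an unadjusted p under 0.05, the keratins Krt8 at 0.92 and Krt18 at 0.80 and Epcam at 2.44, with edgeR adjusted p 0.147, 0.166 and 0.347. Epcam rested largely on Isl1_hypo 1, with 4, 25, 22 and 46 counts in CTRL and 181, 18, 10 and 54 in Isl1_hypo. Pharyngeal endoderm was represented by Hhex alone among tested genes (−0.12, edgeR adjusted p 0.841), with Shh at 0 counts in all libraries, and no somite muscle gene was tested, with Uncx at 0 throughout. None of the genes in these lists passed the adjusted threshold in edgeR.

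The genes most like each factor across the 8 libraries were found by Pearson correlation of log2 CPM among 12640 tested genes with at least 1 CPM on average. For Dlx2 these were Gem (r = 0.989), the mesenchymal bHLH gene Twist2 (0.987) and Tbc1d8 (0.986). For Dlx5 they were BC037034, Anapc7 and Zer1 (0.981 to 0.986), for Prrx1 they were Emb, Trpv4 and Inhba (0.959 to 0.968), and for Prrx2 Mmrn2, Ifi30 and Rpl41 (0.964 to 0.970). Among the factors themselves r was 0.889 for Dlx1 and Dlx2, 0.836 for Dlx2 and Dlx5, 0.858 for Dlx2 and Tfap2a, and −0.11 for Prrx1 and Prrx2. These values describe 8 libraries that share the group difference, the low value in Isl1_hypo 3 and the base composition of each library, and they are given without a test.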

How the data were processed

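The sources name STAR, the mm9 build and HOMER, with which the authors aligned the reads and counted exon reads per RefSeq transcript on both strands. The deposited whole-number counts were used as they stand, and transcript length was taken from the same table. Columns of RPKM and of the authors' own comparison (fold changes and p-values) were not used. Where a symbol had several transcripts, only that with the largest mean count was used. Each library is 1 embryo, 100 ng of whose RNA entered the library according to the labels. Counts were tested with edgeR 4.0.16 in R 4.3.3 (TMM, filterByExpr, quasi-likelihood test, Benjamini-Hochberg adjustment over 13769 genes, threshold 0.05), and CPM used TMM-scaled totals. DESeq2 1.42.0 and limma-voom with sample quality weights (limma 3.58.1), other size factors and filters, the longest transcript, a replicate block, a globin covariate and leaving out each library were alternatives. Exact permutation tests and intervals used scipy 1.17.1. With 29748458 to 46678973 counts in CTRL and 18422245 to 33050298 in Isl1_hypo, 3 counts marked the detection floor. The script was tested on simulated counts. Coordinates are from GENCODE vM1 (mm9), where Tfap2a and Tfap2b are listed as Tcfap2a and Tcfap2b, and GC content, a check added after the data were seen, covered 91.4% of tested genes. For Pax3 both RefSeq transcripts had equal counts.

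The factors and gene lists were chosen with earlier results of these data known, so no p-value was adjusted over the list alone. Genes named from a list were those with adjusted p under 0.05, or otherwise the 3 with the lowest unadjusted p, and the 3 most correlated genes were named for each tested factor with a mean of at least 1 CPM. List genes at 0 in all libraries and the main contributors to the arch and epithelial sums were named outside this rule after their values were seen. Epithelial markers and genes with overlapping exons were named where they touched a factor.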

Additional observations from a re-analysis of the deposited data

Results flagged for a closer look

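Within CTRL, Tfap2a in CTRL 4 stood apart from the other controls, with a log2 CPM of −1.48 against −0.79 to −0.72, because its gap to the nearest control took up most of the range of the group. It held 14 counts in the deepest library, against 17 to 22 counts in the other controls. Of 12 groups of 4 libraries examined, 1 stood out in this way, and chance gives 0.6.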

How the results depend on the processing

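With edgeR 37 of all genes were called, against 319 with DESeq2, 130 with limma-voom and sample quality weights (test and weights changed together), 0 with the globin covariate (505 at an unadjusted p under 0.05), 0 with the replicate block (1582 unadjusted) and 4 to 48 when single libraries were left out. Isl1 too was not called with the globin covariate or with the replicate block (edgeR adjusted p 0.494 and 0.0722). The number of factors called was 0, and 1 with DESeq2 (Dlx1, which passed the filter only through CTRL). With the replicate block it was 0 too and the median log2 fold change −0.75, but same-numbered embryos did not deviate together (correlations of −0.021 to 0.022), so the samples share only a number. The median stayed between −0.95 and −0.29 when single libraries were left out. Of 106 fitted values of the tested factors under alternatives, 105 kept their direction. The exception was Tfap2a at 0.56 with the globin covariate, the cause of which was not tested. These values are refits of the same 8 libraries or most of them, so they are not independent. Tfap2a at −0.015 (SE 0.684) without Isl1_hypo 3 is counted as keeping its direction. Dlx1 ranged from −5.99 to −3.50 (adjusted p 0.0102 to 0.999) and Dlx2 from −1.84 to −1.06 (adjusted p 0.0592 to 0.999). The Prrx1 to Prrx2 difference of 0.082 ran from −0.093 to 0.38 with single libraries left out, and was negative without CTRL 2, CTRL 4 or Isl1_hypo 3. With at least 10 counts in every library Dlx1 and Tfap2a were not tested. Sox10, Foxd3, Pax3 and Tfap2b rested on low counts and did not pass the filter.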

Other observations

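Several crest and arch genes that were not named above had uneven counts among the hypomorphs, and they were picked after their values were seen. Isl1_hypo 1 held 38 counts of Dlx3 against 0, 0 and 7 in Isl1_hypo 2 to 4, and 24, 21, 15 and 21 in CTRL. It also held 36 counts of Pitx1 against at most 9 in any other library, and 121 counts of Osr1 against 3, 25 and 13 in the other hypomorphs and 31, 130, 36 and 55 in CTRL. The LIM-homeobox gene Lhx6 had 28 counts in Isl1_hypo 4 and 0 in the other hypomorphs, with 17, 25, 6 and 0 in CTRL. The AP-2 gene Tfap2c had 20 counts in Isl1_hypo 1, 15 in CTRL 2 and 5 in Isl1_hypo 4, and 0 in the other libraries. Foxf2, a forkhead gene of arch mesenchyme, had 9, 17, 6 and 21 counts in CTRL and 0, 0, 0 and 8 in Isl1_hypo, with an overlap between the groups, and the filter removed it.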
